A study of Mus musculus with 6 samples.

Results

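This account concerns 37 genes of skin macrophages and other myeloid cells, read by gene symbol from the 19131 genes measured in embryonic mouse skin. The symbols were given as a list of macrophage identity, complement C1q, Fc receptor and myeloid signalling genes, drawn up with earlier results of these data known, so that counts over them describe the list and are no independent support. All 37 were found, 35 held enough reads to be tested, and 2 were not tested, Timd4 and Lair1. Whole skin at E17.5, on the C57BL/6N strain background, was sequenced in bulk from 3 Tie1 knockout and 3 control samples, none with a stated treatment. TIE1 is an endothelial receptor tyrosine kinase and a relative of the angiopoietin receptor TIE2. Knockout and control titles alike add ECD to the gene's name without saying what it stands for. The labels also leave unsaid in which cells Tie1 was lost, and whether the samples of a group came from separate embryos, so p-values measure only the spread between these samples, which may be technical.

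Macrophages settle in the skin before birth, from yolk sac and fetal liver precursors, and some lie along its vessels. Their survival depends on the receptor CSF1R, which binds 2 ligands, CSF1 and IL-34, the latter made largely by keratinocytes in skin. The transcription factor PU.1, encoded by Spi1, binds purine-rich ETS motifs in many myeloid promoters, those of Csf1r and the Fc receptors among them. Mature tissue macrophages take up debris through scavenger and lectin receptors such as CD206 (Mrc1) and stabilin-1 (Stab1). They also make the 3 chains of complement C1q, and signal from activating Fc receptors through adaptors that carry an ITAM, a tyrosine motif bound by the kinase SYK.

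Promoter windows of 5 members are shown here because they hold a PU.1-type core and belong to genes on which the comparison below turns, namely Mrc1, a pair of C1q chains and both secreted factors. Each window is RefSeq sequence of GRCm38.p6, 250 bases before to 50 after an annotated start, 5′ to 3′ on the gene's strand, with every GGAAGT or its reverse complement ACTTCC in capitals.
Mrc1 (chr2:14229164-14229463, plus strand): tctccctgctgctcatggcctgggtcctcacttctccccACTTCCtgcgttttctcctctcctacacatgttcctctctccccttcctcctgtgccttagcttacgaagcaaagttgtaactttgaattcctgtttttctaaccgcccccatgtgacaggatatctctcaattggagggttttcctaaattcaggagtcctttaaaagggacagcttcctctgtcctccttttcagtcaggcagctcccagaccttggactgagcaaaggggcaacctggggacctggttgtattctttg
C1qb (chr4:136886151-136886450, minus strand): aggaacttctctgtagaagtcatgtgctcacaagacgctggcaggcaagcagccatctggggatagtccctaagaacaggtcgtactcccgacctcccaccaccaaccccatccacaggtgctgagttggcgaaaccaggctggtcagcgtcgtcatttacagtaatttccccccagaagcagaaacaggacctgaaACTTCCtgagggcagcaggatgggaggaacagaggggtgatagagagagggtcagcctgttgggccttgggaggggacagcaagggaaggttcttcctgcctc
C1qc (chr4:136892865-136893164, minus strand): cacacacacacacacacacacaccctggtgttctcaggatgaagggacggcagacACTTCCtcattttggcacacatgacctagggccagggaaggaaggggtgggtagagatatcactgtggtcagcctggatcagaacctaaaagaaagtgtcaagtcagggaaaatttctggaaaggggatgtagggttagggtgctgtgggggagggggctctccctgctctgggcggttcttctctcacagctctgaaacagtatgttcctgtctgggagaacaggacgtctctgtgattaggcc
Pf4 (chr5:90772185-90772484, plus strand): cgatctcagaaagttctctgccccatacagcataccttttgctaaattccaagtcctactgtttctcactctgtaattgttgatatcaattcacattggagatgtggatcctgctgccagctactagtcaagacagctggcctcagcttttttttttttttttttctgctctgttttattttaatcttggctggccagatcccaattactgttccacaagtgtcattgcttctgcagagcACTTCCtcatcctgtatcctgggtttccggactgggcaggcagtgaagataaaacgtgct
F13a1 (chr13:37049164-37049463, minus strand): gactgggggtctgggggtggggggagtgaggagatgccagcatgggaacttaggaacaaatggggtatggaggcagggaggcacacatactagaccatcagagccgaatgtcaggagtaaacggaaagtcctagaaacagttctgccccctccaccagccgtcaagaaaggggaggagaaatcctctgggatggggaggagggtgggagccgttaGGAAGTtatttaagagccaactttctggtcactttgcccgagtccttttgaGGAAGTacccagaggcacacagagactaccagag

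The core begins at -211 from the start in Mrc1, -53 in C1qb, -195 in C1qc and -10 in Pf4, and at -35 and 16 in the F13a1 window, which is the second of the starts annotated for that gene. The window at the first F13a1 start, not shown, held no core. Windows of this length were present for 27 of the 37 members. The members Maf, Csf1r, Adgre1, Tyrobp, Siglec1, C1qa, Cd86, Spi1, Il34 and Unc93b1 were not among them. GGAAGT, searched on both strands, occurred in 16 of the 27 genes (59.3%), against 30.7% of the 11836 tested genes with a window. The longer GAGGAAGT, which contains the shorter motif, occurred in 5 of 27 (18.5%), against 3.53%. Those 5 genes were Ctss, Cd53, C1qc, Pf4 and F13a1. A match is a description of the letters and no evidence of a bound site.

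The knockout label was first checked against Tie1 itself. Tie1 held 84, 53 and 46 reads in the knockout libraries and 1187, 1023 and 1215 in the controls. The groups lay far apart, at 3.07 ± 1.11 against 56.4 ± 5.02 CPM (SD, n = 3 each), a log2 fold change of −4.20 (adjusted p = 0.00387 by edgeR). Library totals ran from 19826856 to 20591164 reads, and 3 reads, taken as the floor, corresponded to 0.147 to 0.155 CPM (read counts scaled to library size, with TMM factors). Over all genes 24 of 15035 were called changed at an adjusted p under 0.05, a background of 0.160%.

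Defining macrophage genes were well above the floor in every library, Csf1r at 61.6 CPM or more and Adgre1 at 18.4 CPM or more. A pair of libraries stood apart for the member genes. Of the 35 tested members, 19 had their highest level of all 6 libraries in knockout 1, and 23 had their lowest in control 2. Knockout 1 was thus highest for 54.3% of members, against 21.3% of the 12146 tested genes within the members' range of levels. Control 2 was lowest for 65.7% of members, against 14.5% of those genes. Summed over the members, levels were 1944, 1534 and 1629 CPM in knockout 1, 2 and 3 and 1689, 1280 and 1455 CPM in control 1, 2 and 3. Control 1 thus lay above knockout 2 and 3, and the groups overlapped. In bulk tissue, fewer cells of a type and less RNA per cell cannot be told apart. The members were also more variable than other genes: the median SD of log2 CPM within groups was 0.225 over the 35, from 0.0731 for Csf1 to 0.513 for Siglec1, against 0.124 for the 12146 genes. This was not particular to the members. Among lists read below, medians were 0.291 for other macrophage and monocyte genes, 0.255 for CSF1R and ITAM signalling genes and 0.364 for keratinocyte markers. Lower medians included 0.201 for myeloid transcription factor genes, 0.153 for pan-endothelial and 0.13 for dermal fibroblast markers.

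**Figure D1:**
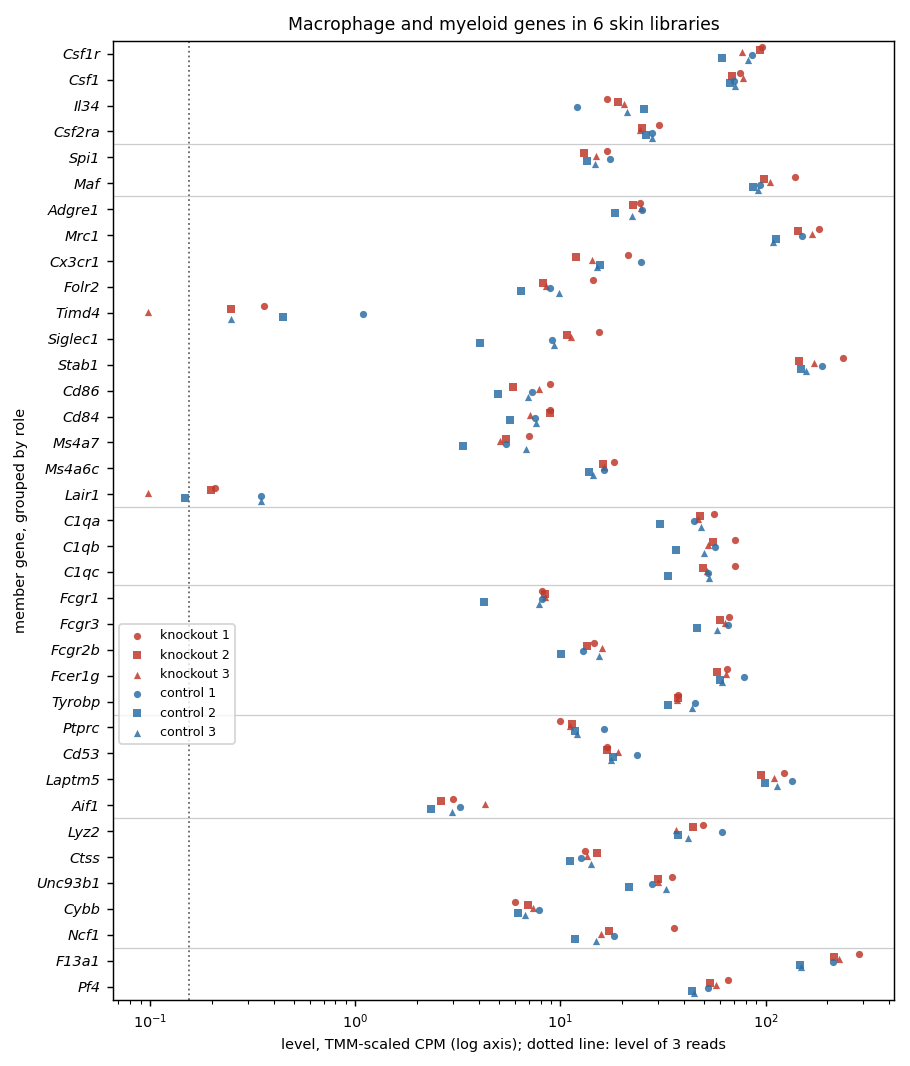
Level of each of the 37 member genes in each library as TMM-scaled CPM on a log axis, grouped by role, with knockout libraries in red and control libraries in blue. Most rows interleave the colours, with knockout 1 often at the right and control 2 often at the left. Timd4 and Lair1 lie near the floor of 3 reads.

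**Figure D2:**
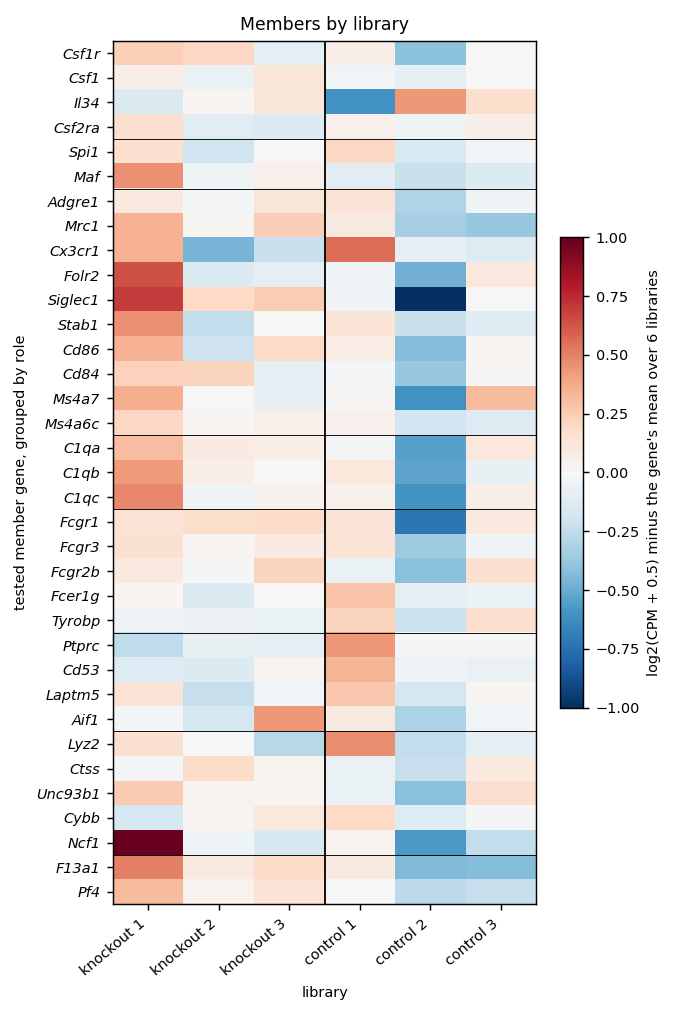
Log2(CPM + 0.5) of each tested member minus its 6-library mean, by library. The median deviation was 0.21 in knockout 1 and -0.30 in control 2 and lay between -0.01 and 0.08 in the other 4 libraries.

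No member was called changed between knockout and control skin, the lowest adjusted p of the 35 being 0.495. The genes that came nearest were F13a1 and Pf4, which encode secreted factors, the mannose receptor gene Mrc1 and the transcription factor gene Maf. These 4 had an unadjusted p under 0.05, all higher in knockout skin (11.4% of members, against a background of 4.08%). None was lower at that p, where the background is 3.35%. With upper-quartile scaling these counts were also 4 and 0, over backgrounds of 3.20% and 4.60%. By sign, 24 members were positive and 11 negative, with log2 fold changes from −0.31 to 0.74 and a median of 0.19, beside 0.0038 over all genes tested. The groups did not overlap for 5 members higher in knockout, Maf, Siglec1, Fcgr1, F13a1 and Pf4 (14.3%, background 7.02%), and for 1 lower, Ptprc (2.86%, background 6.78%). DESeq2 called 1.40% of all genes and limma-voom 0.0998%, and neither called a member. Single libraries weighed heavily. Without control 2 the members' median was 0.053 and no member was higher at p under 0.05, and without control 3 none was either. Without knockout 1 only Pf4 stayed under that p.

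**Figure D3:**
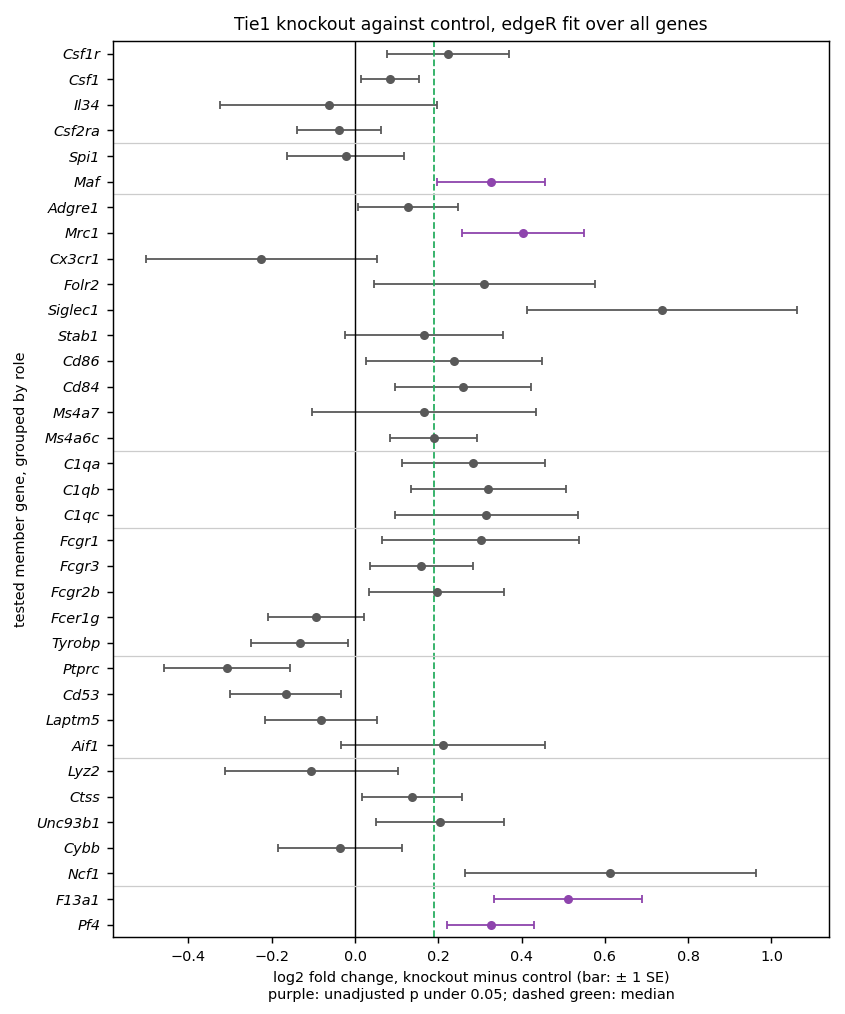
Log2 fold change of each tested member, knockout minus control, with bars of 1 standard error from the edgeR fit, grouped by role. The secreted factors, C1q chains and most surface receptors lie right of 0 and the leukocyte membrane genes mostly left of it, and no member passed the adjusted threshold.

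The secreted factors had the lowest p-values. F13a1 encodes the A subunit of coagulation factor XIII, a transglutaminase that tissue macrophages make in quantity. It stood at 285, 215 and 228 CPM in knockout 1, 2 and 3 and at 214, 148 and 149 CPM in the controls. The groups were separate only narrowly, since control 1 came within 1 unit of knockout 2. Mean levels were 242 ± 37.4 and 170 ± 37.8 CPM, 1.43 times higher in knockout, with a log2 fold change of 0.51 (SE 0.18, adjusted p = 0.552 by edgeR). Without knockout 1 it was 0.38, and without control 1 it was 0.71.

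Pf4, the chemokine CXCL4, is a platelet granule protein that is also expressed by tissue macrophages. Its levels were 65.6, 53.6 and 57.6 CPM in knockout skin and 52.6, 43.8 and 44.7 CPM in the controls. All knockout libraries lay above all controls, by 1 unit at the nearest point. The log2 fold change was 0.33 (SE 0.10, unadjusted p = 0.0161, adjusted p = 0.495 by edgeR). Platelet and megakaryocyte markers were read beside it, since Pf4 belongs to both lineages. Itga2b, their integrin αIIb, lay at 4.32 to 6.20 CPM in knockout skin and 5.60 to 7.15 CPM in the controls, and Gp9 at 0.516 CPM or less in every library. Gp1bb, a platelet glycoprotein gene, gave 3.90, 2.63 and 1.82 CPM in knockout skin and 1.96, 1.82 and 1.54 CPM in the controls. Its log2 fold change was 0.64 (SE 0.31, unadjusted p = 0.0724 by edgeR), and knockout 1 was its highest library, as for Pf4. Of the 4 platelet markers tested, 3 were positive and 1 negative in log2 fold change. Ppbp, another platelet chemokine gene, gave 1.29, 95.6 and 2.40 CPM in knockout skin and 1.09, 1.14 and 0.889 CPM in the controls. Its groups did not overlap, with knockout 2 far above the rest and knockout 1 near the controls. The log2 fold change was 4.99 (SE 1.99, unadjusted p = 0.0511 by edgeR). The 7 platelet markers together summed to 12.2 to 107 CPM in knockout skin and 11.0 to 15.4 CPM in the controls. Knockout 2 was the lowest knockout library for Pf4. The part of platelets in the Pf4 values was not tested.

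Of the tissue macrophage surface receptors, 9 of the 10 tested were positive in log2 fold change (median 0.21), and 1 had an unadjusted p under 0.05. This was Mrc1, which encodes the mannose receptor CD206. It measured 181, 144 and 169 CPM in knockout skin and 151, 113 and 109 CPM in the controls. Control 1 fell inside the knockout range. Means were 165 ± 19.2 and 124 ± 23.2 CPM, and the log2 fold change was 0.40 (SE 0.15, adjusted p = 0.577 by edgeR). Leaving out control 3 gave 0.31 and leaving out control 1 gave 0.57. Without knockout 1 and control 1 together, a fit chosen after the data had been seen that called 0.923% of all genes, Mrc1 (0.49, adjusted p = 0.0364) and F13a1 (0.58, adjusted p = 0.00695) were both called.

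Siglec1, the sialic acid-binding receptor CD169, had the largest fold change of the members at 0.74 (SE 0.32, adjusted p = 0.684 by edgeR). Its levels were 15.4, 10.8 and 11.2 CPM in knockout skin and 9.08, 4.06 and 9.28 CPM in the controls. The groups did not overlap, and control 2 lay far below the other controls. Adgre1, which encodes the macrophage marker F4/80, gave 24.3, 22.5 and 24.8 CPM against 25, 18.4 and 22.2 CPM. The highest value of all belonged to control 1, and the log2 fold change was 0.13 (SE 0.12). The remaining receptors were unresolved too. Stab1 was the most abundant in reads, with 185 ± 47.3 and 165 ± 21.2 CPM (0.17, SE 0.19). Folr2, the folate receptor beta gene of perivascular macrophages, stood at 10.4 ± 3.51 and 8.36 ± 1.77 CPM (0.31, SE 0.27). Its difference vanished, at −0.00065, without knockout 1.

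The receptor genes Cd84, Cd86, Ms4a7 and Ms4a6c had log2 fold changes between 0.17 and 0.26. The exception in sign was Cx3cr1, the fractalkine receptor of microglia, monocytes and some tissue macrophages. It stood at 15.8 ± 4.89 CPM in knockout skin and 18.5 ± 5.36 CPM in the controls (−0.23, SE 0.28). Both number 1 libraries were its highest, at 21.3 and 24.7 CPM. Timd4, a phosphatidylserine receptor of long-lived resident macrophages, held 7, 5 and 2 reads in knockout and 22, 9 and 5 in control libraries. The collagen receptor gene Lair1 held 4, 4 and 2 against 7, 3 and 7. Both were too near the floor for a comparison at this depth.

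The growth factor axis that maintains macrophages showed no called difference at the receptor or the ligands. Csf1r stood at 96.6, 94.4 and 76.5 CPM in knockout skin and at 85.9, 61.6 and 81.7 CPM in the controls. Knockout 3 fell among the controls, and the log2 fold change was 0.22 (SE 0.15, adjusted p = 0.777 by edgeR). Csf1, the more widely made ligand, was the least variable member. It gave 74.8, 68.3 and 77.5 CPM against 70.0, 67.1 and 71.1 CPM, a log2 fold change of 0.084 (SE 0.069).

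Il34, the keratinocyte ligand, gave 16.8, 19.0 and 20.4 CPM in knockout skin and 12.1, 25.4 and 21.2 CPM in the controls. The controls held both its lowest and its highest value, and the log2 fold change was −0.063 (SE 0.26). The summed keratinocyte markers were likewise lowest in control 1 and highest in control 2, at 18300 and 34500 CPM, and from 23800 to 28600 CPM in the other 4 libraries. Their part in the Il34 values was not tested. Csf2ra, the GM-CSF receptor alpha chain gene, had 26.6 ± 3.26 and 27.3 ± 1.06 CPM (−0.039, SE 0.10).

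The transcription factor genes gave unlike patterns. Spi1, encoding PU.1, gave 16.9, 13 and 15.0 CPM in knockout skin and 17.4, 13.4 and 14.7 CPM in the controls. These ranges nearly coincided, with a log2 fold change of −0.022 (SE 0.14). Maf, a bZIP factor of resident macrophages that endothelial and other skin cells also express, gave 139, 98.3 and 105 CPM against 94.0, 87.0 and 92.2 CPM. All knockout libraries lay above all controls, with knockout 1 the farthest from them. The log2 fold change of 0.33 (SE 0.13, adjusted p = 0.631 by edgeR) was 0.16 without that library.

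The 3 C1q chains, encoded side by side on chromosome 4 (136880126 to 136898844, GRCm38.p6), kept close proportions. C1qa gave 55.8, 47.7 and 47.1 CPM in knockout skin and 44.5, 30.7 and 48.4 CPM in the controls. C1qb gave 70.9, 55.2 and 52.6 CPM against 56.8, 36.5 and 49.9 CPM. C1qc gave 70.9, 49.3 and 52.1 CPM against 52.2, 33.3 and 52.9 CPM. For each chain knockout 1 was highest and control 2 lowest, and the groups overlapped. For C1qc, knockout 2 and 3 lay below control 1 and 3. Log2 fold changes were 0.28, 0.32 and 0.32 with SE of 0.17, 0.19 and 0.22, and none had an unadjusted p under 0.05. The ratio of C1qa to C1qb ran from 0.787 to 0.971 and that of C1qc to C1qb from 0.892 to 1.06, overlapping between the groups in both cases.

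Fc receptor genes and their adaptors pointed in different directions without resolving. Fcgr1, the high-affinity IgG receptor CD64, gave 8.14, 8.38 and 8.44 CPM in knockout skin and 8.09, 4.26 and 7.90 CPM in the controls. The groups did not overlap, yet apart from control 2 all values fell within 1 unit of each other, and the log2 fold change was 0.30 (SE 0.24). Fcgr3, the activating low-affinity receptor gene, stood at 63.2 ± 3.02 and 56.6 ± 9.62 CPM (0.16, SE 0.12). The inhibitory Fcgr2b stood at 14.6 ± 1.2 and 12.8 ± 2.64 CPM (0.20, SE 0.16).

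Tyrobp encodes DAP12, the ITAM adaptor that partners TREM2 and other myeloid receptors. It gave 37.4, 37.2 and 37.1 CPM in knockout skin and 45.5, 33.4 and 43.6 CPM in the controls. The knockout libraries were nearly alike and lay inside the control range (−0.13, SE 0.12). Without control 2 the log2 fold change was −0.27 with an unadjusted p of 0.0099. Fcer1g, the common Fc receptor gamma chain gene, which mast cells also express, stood at 62.4 ± 3.86 and 66.6 ± 10.3 CPM (−0.094, SE 0.11).

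Leukocyte membrane and cytoskeletal genes were the group with mostly negative signs, 3 of 4, with Aif1 the exception. Ptprc, the phosphatase CD45 carried by all nucleated blood lineage cells, gave 9.95, 11.4 and 11.2 CPM in knockout skin and 16.3, 11.8 and 12 CPM in the controls. Every knockout library lay below every control, though control 2 and knockout 2 were less than 1 unit apart. The log2 fold change was −0.31 (SE 0.15, unadjusted p = 0.0783, adjusted p = 0.696 by edgeR). Cd53, a leukocyte tetraspanin gene, and Laptm5, a lysosomal membrane protein gene of leukocytes, had −0.17 (SE 0.13) and −0.082 (SE 0.13). Aif1, encoding the actin-binding protein IBA1, had 0.21 (SE 0.25) at only 3.30 ± 0.862 and 2.85 ± 0.474 CPM.

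Relative to Ptprc, the macrophage genes with low p-values were separated. The ratio of F13a1 to Ptprc was 28.6, 18.9 and 20.4 in knockout and 13.1, 12.5 and 12.3 in control libraries. For Mrc1 it was 18.2, 12.6 and 15.1 against 9.26, 9.54 and 9.07. For Pf4 it was 6.59, 4.72 and 5.15 against 3.22, 3.70 and 3.71. In these ratios the controls were nearly alike and every knockout library lay above them. For F13a1, Pf4 and Maf that separation was fixed beforehand, since each was higher and Ptprc lower without overlap. It adds nothing to their single-gene values. The ratio of Csf1r to Ptprc was separate only narrowly, at 6.84 in knockout 3 and 6.78 in control 3. Of 11 such ratios, formed after the values were known and untested for that reason, the 5 with Ptprc below the line did not overlap and the other 6 did. Ptprc itself was lower without overlap, and the share of all genes that separate when divided by it was not counted. These 5 ratios therefore show nothing particular to macrophage genes. Relative to Csf1r rather than Ptprc, Mrc1, F13a1 and Adgre1 overlapped between the groups. A lower Ptprc and a higher macrophage gene enter such a ratio alike.

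The effector genes of lysosome and oxidase were unresolved. Lyz2, the lysozyme of myeloid cells, gave 49.6, 44.4 and 36.6 CPM in knockout skin and 61.4, 37.4 and 41.7 CPM in the controls, fully overlapping (−0.10, SE 0.21). Ctss, the protease cathepsin S, and Unc93b1, which delivers endosomal Toll-like receptors, had 0.14 (SE 0.12) and 0.20 (SE 0.15). Cybb, the catalytic NADPH oxidase subunit, had −0.036 (SE 0.15). Its cytosolic partner Ncf1 stood at 35.8, 17.2 and 15.8 CPM against 18.3, 11.8 and 14.9 CPM. Knockout 1 alone set its log2 fold change of 0.61 (SE 0.35), which was 0.14 without it. Ncf1 is 1 of 9 members whose estimated counts were not whole in any of the 6 libraries, as happens where reads are divided among similar sequences. The others were Csf2ra, Maf, Cx3cr1, Stab1, Ms4a6c, Fcgr3, Fcgr2b and Lyz2, and their levels carry that uncertainty.

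Between genes, levels were compared per kilobase of merged exons. In control skin the adaptor genes led, Fcer1g with 89.0 ± 13.8 and Tyrobp with 72.4 ± 11.5 CPM per kilobase, followed by Pf4 with 67.2 ± 6.91. The neighbours Tyrobp and Pf4 did not differ beyond their spread. Laptm5, C1qb, F13a1, Fcgr3, C1qa, C1qc and Lyz2 followed at 44.5 down to 35.6 CPM per kilobase, each within the spread of the next. Mrc1 and Stab1, the most read-rich receptors, stood at 23.2 ± 4.32 and 20.6 ± 2.65 on this scale, and Csf1r at 15.6 ± 2.66. Siglec1 was the lowest tested member at 1.05 ± 0.414 CPM per kilobase, with Cd84 beside it at 1.11 ± 0.172.

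Lists of further myeloid genes, written down beside the members, were read from the same fit. Of 57 such genes tested none was called by edgeR, 8 had an unadjusted p under 0.05, all higher in knockout, and the median log2 fold change was 0.045. Among 20 other macrophage and monocyte genes, 7 were higher at that p (35.0%, against 4.08% of all genes) and none was lower, in a list that was likewise chosen with earlier results known. The list's median was 0.14. Of its 20 genes, 8 did not overlap between the groups in the higher direction, where the background is 7.02% of all genes. In the lower direction 1 did not overlap, where the background is 6.78%. Slc11a1, the phagosomal metal transporter NRAMP1, gave 13.4, 9.71 and 12.1 CPM in knockout skin and 6.27, 5.80 and 6.82 CPM in the controls. The groups were clearly apart, with a log2 fold change of 0.90 (SE 0.15, adjusted p = 0.103 by edgeR). Msr1, the class A scavenger receptor gene, gave 11.8, 13.7 and 12 CPM against 9.37, 6.54 and 7.90 CPM, also without overlap (0.66, SE 0.15, adjusted p = 0.261 by edgeR).

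Trem2, the lipid-sensing receptor that signals through the Tyrobp product, gave 3.71, 2.53 and 3.04 CPM in knockout skin and 1.48, 0.792 and 1.53 CPM in the controls. Every knockout library was above every control (1.28, SE 0.30, adjusted p = 0.261 by edgeR), while its adaptor Tyrobp had a log2 fold change of −0.13. DESeq2 called these 3 genes and no other of the 57. The other 4 with an unadjusted p under 0.05, named after their values were seen, were Cd68, Itgam, Lyve1 and Marco.

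Lyve1, shared by lymphatic endothelium and perivascular macrophages, gave 162, 104 and 106 CPM in knockout skin and 93.8, 65.5 and 64.4 CPM in the controls. Its groups did not overlap (0.73, SE 0.23, adjusted p = 0.501 by edgeR). Lymphatic endothelial markers summed to 125 to 152 CPM in knockout skin and 154 to 211 CPM in the controls, and 3 of these 6 markers were lower at an unadjusted p under 0.05. The 3 were Prox1, the lymphatic master regulator (−0.94), Reln (−0.53) and the chemokine gene Ccl21a (−2.27), which at 4.46 to 19.2 against 38.3 to 56.9 CPM carried much of the gap in the sum. The other markers overlapped between the groups, Flt4 at 0.062, Pdpn at 0.16 and Mmrn1 at −0.12.

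The 16 signalling genes downstream of CSF1R and the ITAM adaptors had none with an unadjusted p under 0.05, and 11 were negative. Syk and Btk, both kinases of these pathways, had log2 fold changes of −0.14 and −0.31. Among 8 further myeloid transcription factor genes, Irf5 alone had an unadjusted p under 0.05 (log2 fold change 0.33, adjusted p = 0.642 by edgeR). Among 4 NADPH oxidase partners and 11 complement genes outside C1q none had, with Cyba at 0.18 and the anaphylatoxin receptor gene C3ar1 at 0.33.

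Markers of the other cells that a skin sample holds moved between libraries and, for some lists, with genotype. Mast cell markers, of an Fc receptor-bearing lineage, summed to 1850 to 1910 CPM in knockout skin and 2670 to 3700 CPM in the controls, and 6 of 7 were lower in knockout at an unadjusted p under 0.05. The chymase gene Cma1 had a log2 fold change of −0.77 (adjusted p = 0.0678 by edgeR). Mast cells carry CD45 and the Fc receptor gamma chain, and Ptprc and Fcer1g were highest in control 1, as was the mast cell sum. The part of these cells in the Ptprc and Fcer1g values was not tested.

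Langerhans and dendritic cell markers summed to 12.2 to 13.4 CPM in knockout skin and 13.5 to 18 CPM in the controls, with Cd207, which encodes langerin, at 0 in 4 of 6 libraries. These sums rest mostly on Zbtb46 and Mgl2, each of which overlapped between the groups. Neutrophil markers lay between 2.11 and 20.1 CPM in knockout skin and between 4.36 and 9.62 CPM in the controls. T and NK cell markers, of cells that also carry CD45, overlapped as a sum, at 219 to 274 and 213 to 252 CPM. This sum rests mostly on Thy1. Of the 4 tested, Nkg7 (−1.61) and Cd3g (−0.90) were lower without overlap, both at 0.888 CPM or less in every library, and 2 were positive. The part of these cells in the Ptprc values was not tested. Pan-endothelial markers overlapped as a sum, at 634 to 746 and 647 to 746 CPM, but single genes lay apart in both directions. Plvap (−0.59, adjusted p = 0.0528 by edgeR), Emcn (−0.52) and Kdr (−0.17) were lower without overlap and Pecam1 (0.27) higher without overlap, and none of them was called. Hair follicle markers set apart the number 1 libraries of both groups, at 493 and 545 CPM against 891 to 1120 CPM in the other 4. Those 2 libraries also held the highest value of 19 (knockout 1) and 10 (control 1) of the 35 tested members. These shares were 54.3% and 28.6%, against 21.3% and 19.8% of the 12146 tested genes within the members' range of levels. The part of the hair follicle difference in the members' levels was not tested. Adipocyte markers summed to 214 to 319 CPM in knockout skin and 335 to 408 CPM in the controls, without overlap, sums that rest mostly on Fabp4 and Lpl. The lipid droplet gene Plin1 was called lower, at 0.979, 0.446 and 0.932 against 8.93, 4.66 and 8.54 CPM (−3.22, adjusted p = 0.0353 by edgeR), and Adipoq, encoding adiponectin, had −3.88 without a call. Posterior Hox genes, which vary with body position, summed to 138, 155 and 157 CPM in knockout skin and 156, 125 and 124 CPM in the controls.

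**Figure D4:**
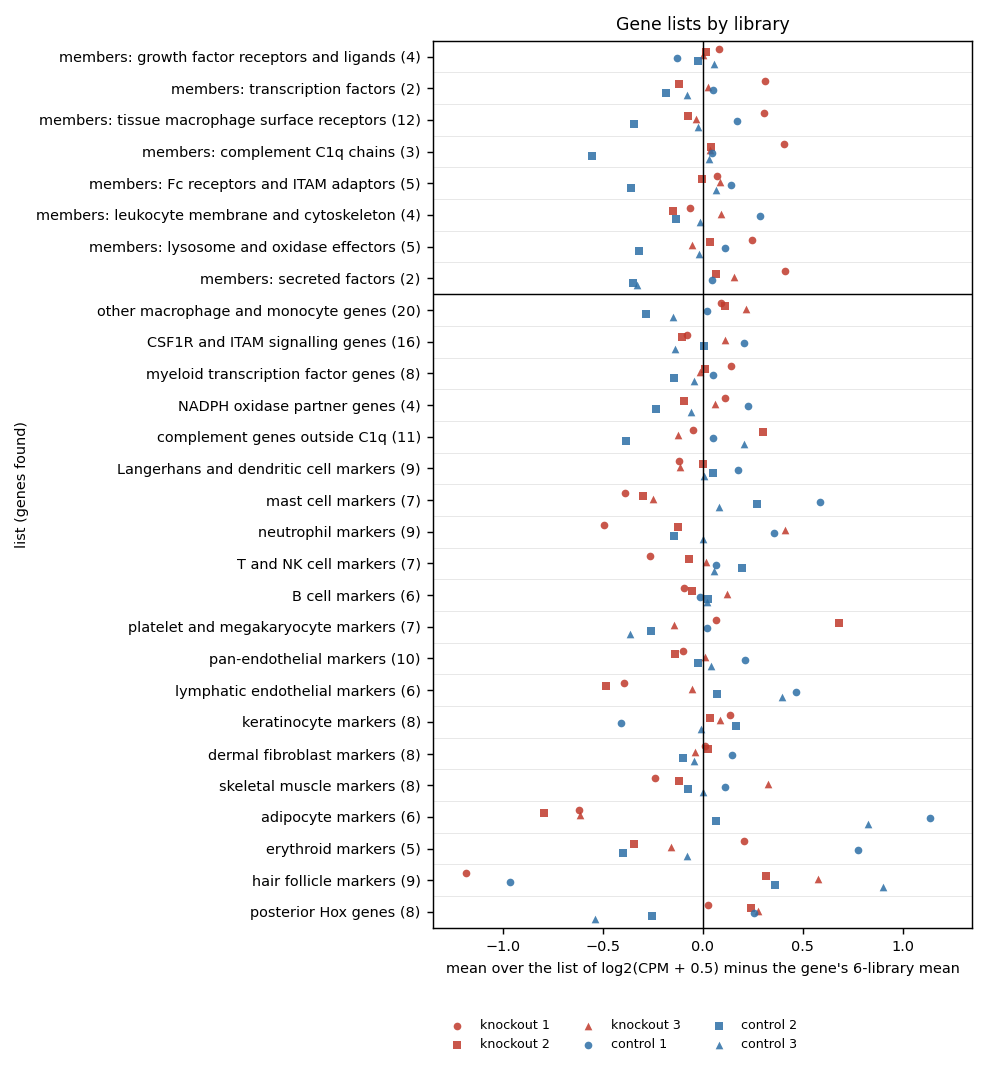
Mean over each gene list of log2(CPM + 0.5) minus the gene's 6-library mean, by library, with the roles of the members above the line and other lists below it. Knockout libraries lie left of the controls for mast cell, lymphatic endothelial and adipocyte markers. The same holds narrowly for T and NK cell markers and for Langerhans and dendritic cell markers. Knockout libraries lie right of the controls for the members' secreted factors, narrowly, and for other macrophage and monocyte genes. The number 1 libraries of both groups lie far left for hair follicle markers.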

How the data were processed

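Bulk RNA of E17.5 skin was measured in 6 libraries, 3 of Tie1 knockout and 3 of control skin, grouped by GEO's labels. Each deposited file holds 1 estimated count (expected count) per gene, per the file headers, not normalized. Named without roles, per the submitters' processing notes, are the build GRCm38.p6 and the tools RSEM 1.2.12, HISAT2 2.0.4 and Bowtie2 2.2.5. In each library 31.0 to 31.9% of genes had a value more than 0.001 from a whole number. No source used here says whether counting used the strand, so overlapping genes cannot be told apart.

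Estimated counts were rounded, filtered with filterByExpr (minimum count 10), scaled by TMM and compared over all 15035 remaining genes in edgeR 4.0.16 (R 4.3.3; quasi-likelihood F test, robust fit), with Benjamini-Hochberg adjustment and calls at an adjusted p under 0.05. A standard error is the absolute log2 fold change divided by the square root of F. Levels are mean ± SD of TMM-scaled CPM. The floor of 3 reads covers counting error only. The fitting step was tested on simulated data. Alternatives were other scalings and filters, limma-voom (limma 3.58.1), DESeq2 1.42.0, a replicate block, a quasi-likelihood fit without the robust option, and leaving out each library.

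The rule for named genes took Tie1, every member, and up to 3 genes with the smallest p of each other list. Some further genes of these lists were named outside that rule: Cd68, Itgam, Lyve1, Marco, Gp9, Kdr, Flt4, Pdpn, Mmrn1, Cd207, Fabp4 and Lpl. The members and lists were chosen with earlier results of these data known. Coordinates and promoter windows are from RefSeq GRCm38.p6, and exon lengths from the GENCODE M21 annotation. Protein sequences, planned for the ITAM adaptors, were not used here.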

Additional observations from a re-analysis of the deposited data

How the results depend on the processing

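Scaling, filtering, DESeq2, limma-voom and a fit that is not robust left 0 members called, and no scaling moved the median of all genes by more than 0.031 (log2). Of 525 member values under 15 alternatives, 500 kept their direction and their side of the threshold, 23 changed sign and 2 became called. The 2 were F13a1 and Mrc1 without knockout 1 and control 1 together, the only fit with members called (2), which also called 3 other pathway genes (Msr1, Lyve1 and Marco). DESeq2 called 3 other pathway genes. Leaving out 1 library, with fewer samples in each fit, gave 0 to 5 members higher and 0 to 2 lower at an unadjusted p under 0.05 (all genes, 2.34 to 4.93% higher and 2.42 to 3.72% lower), and medians of 0.053 to 0.26. Tie1 ranged from −4.53 to −4.02 over these fits, and without knockout 2 its −4.10 missed the threshold (adjusted p = 0.0559). Sign changes, whose cause was not tested, involved 13 members. Over the fits that leave out 1 library, Il34 ran from −0.32 to 0.16, Csf2ra from −0.14 to 0.019, Spi1 from −0.12 to 0.088, Cx3cr1 from −0.50 to 0.038, Folr2 from −0.00065 to 0.45 and Stab1 from −0.053 to 0.31. Ms4a7 ran from −0.076 to 0.40, Fcer1g from −0.17 to 0.042, Laptm5 from −0.19 to 0.041, Aif1 from −0.021 to 0.35, Lyz2 from −0.25 to 0.14 and Cybb from −0.12 to 0.068. Il34 was 0.0016 with limma-voom. Without knockout 1 and control 1 together, Fcer1g was 0.011, Cd53 0.012, Lyz2 0.036 and Cybb 0.15. Deviations of same-numbered samples correlated at 0.411, 0.0431 and 0.266, and knockout 2 correlated best with control 3 (0.184), so the numbers were not taken as pairs. With the replicate block 52 genes were called over all, 0 members and 1 other pathway gene (Lyve1), and 8 members were higher at an unadjusted p under 0.05, as were 6.13% of all genes. Depth limited the comparison for Timd4 and Lair1.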

Other observations

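Single libraries held high levels of some blood cell genes. S100a9, a calcium-binding protein gene of neutrophils, stood at 12.8 CPM in knockout 3 and at 0.876 to 3.16 CPM in the other 5 libraries. It made up most of the neutrophil marker sum of knockout 3. The neutrophil list was mixed, with 2 of the 4 tested genes positive and 2 negative in log2 fold change. Ngp gave 0.258, 0.297 and 0.687 CPM in knockout skin and 2.61, 0.743 and 1.04 CPM in the controls. It was lower without overlap (−1.80, adjusted p = 0.536 by edgeR). Erythroid markers summed to 178 CPM in control 1 and to 65.0 to 99.8 CPM elsewhere.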
